A study of Mus musculus with 78 samples.

Results

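The genes described here are 10 immediate early genes that encode transcription factors or, for Ier2, a nuclear regulator of transcription: Fos, Fosb, Junb, Egr1, Egr2, Egr4, Npas4, Nr4a1, Nr4a3 and Ier2. They were chosen by name, not by their values, and all 10 were present in both deposited count tables, among 55367 gene symbols. Immediate early genes are transcribed within minutes of a stimulus, without the synthesis of new protein. In a neuron, calcium entry and receptor signalling activate kinases that act on factors already bound to the promoters, such as CREB and the serum response factor, and the transcripts decay quickly once the stimulus ends. In the striatum, dopamine and glutamate inputs act together on these genes in projection neurons, and their products are widely used to mark cells engaged by a drug or a task.

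Poly(A) RNA had been sequenced from 7 dissected brain regions of 12 adult C57BL6/J mice of both sexes. Mice labelled ACSS2 KO carried a constitutive CRISPR/Cas9 deletion between introns that flank exons 3 to 7 of Acss2, whose product makes acetyl-CoA from acetate. Founders were backcrossed, and the wild-type (WT) mice lack the deletion. Every mouse of both genotypes was housed singly and had voluntarily drunk 15% (v/v) ethanol in the drinking-in-the-dark model, first beside a bottle of water and in the next week with ethanol alone, in sessions of 2 h or 4 h. No mouse without ethanol and no time point are among the samples, so the values are levels after drinking and show no induction. The 12 mice comprised 3 male KO (mice 1, 2 and 10), 3 female KO (4, 5 and 6), 3 male WT (3, 12 and 13) and 3 female WT (11, 23 and 24). Of the 28 groups of sex, genotype and region, 23 held 3 libraries, 4 held 2 and 1, the male KO prefrontal cortex, held 1.

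The 78 libraries (40 KO and 38 WT) fell into 2 ranges of depth that followed the regions. Amygdala, dorsal hippocampus and both parts of the striatum held 47 libraries of 4454420 to 14487778 counts, and cortex, ventral hippocampus and prefrontal cortex held 31 libraries of 629635 to 1228828 counts. Levels are given as CPM, a gene's count scaled to a common library total (counts-per-million), and 3 counts correspond to 0.207 to 0.673 CPM in the deeper libraries and to 2.44 to 4.76 CPM in the shallower ones. Regions were therefore tested only within a range of depth. Acss2 itself lay between 0.971 and 13.96 CPM in the KO libraries and between 35.9 and 73.8 CPM in the WT libraries, without overlap.

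Several libraries went against their labels. The prefrontal cortex library labelled female WT mouse 23 had Xist at 0 and Ddx3y at 73.4 CPM, where the other female libraries had Xist at 358 to 1077 CPM and Ddx3y at no more than 1.0999 CPM. Among the striatum libraries, 5 had a mean of the 9 markers of striatal projection neurons, as log2(CPM + 1), below 7.5, a bound chosen after the values were seen. They were ventral striatum of mouse 10 (6.29), mouse 11 (7.06) and mouse 13 (5.26) and dorsal striatum of mouse 10 (4.88) and mouse 23 (3.97), beside medians of 8.57 and 8.84. In the last pair the markers of cortical excitatory neurons averaged 7.64 and 7.63, against 6.92 to 7.59 in the cortex libraries. Ventral hippocampus of mice 10 and 6 had hippocampal markers at 3.89 and 3.96, below a bound of 4.5 and a median of 5.76, and in mouse 6 the striatal markers stood at 8.35. The tests, spreads and correlations that these 7 libraries enter were repeated without them, and the values are given where they changed a call or moved a summary. Libraries of the other regions were kept, although their marker means also varied. Hippocampal markers ran from 5.43 to 7.68 in dorsal hippocampus, and striatal markers ran from 3.98 to 7.39 in amygdala. The repeats therefore do not remove every library with unusual markers. The levels by region are given with all libraries. In bulk tissue, fewer cells of a type and less RNA per cell cannot be told apart.

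Promoter windows, the 250 bases before each RefSeq start, show what the genes share outside the counts. Windows were found for 8 of the 10 genes in the RefSeq table (GRCm38.p6); Egr1 and Ier2 had none there. All 8 genes held at least 1 copy of TGACG, the core of the cAMP response element that CREB recognises, on either strand, where 19.8% of 27025 genes held it. The full palindrome TGACGTCA, which contains that core on both strands, was in none of the 8 and in 1.77% of all genes. Among these genes Egr2 alone held a CArG box, the element of the serum response factor, which 1.62% of all genes held. Egr2 had 5 windows, where each of the others had 1. The Egr element GCGNGGGCG was found for Fosb and Nr4a1 and for 5.33% of all genes. The stretches that carry the cores are shown with the core (TGACG, or CGTCA when on the other strand) and the CArG box in capitals. Whether they bear on the correlations between the levels of these genes (described later) was not tested. Each match is a string of letters, not a measured site.
Fos, chr12:85473751-85473838, plus strand: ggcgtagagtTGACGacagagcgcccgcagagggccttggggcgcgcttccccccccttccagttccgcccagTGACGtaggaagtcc
Fosb, chr7:19310091-19310115, minus strand: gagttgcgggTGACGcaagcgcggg
Junb, chr8:84978840-84978864, minus strand: ttcctgacagTGACGcgagccgcct
Egr2, chr10:67537748-67537828, plus strand: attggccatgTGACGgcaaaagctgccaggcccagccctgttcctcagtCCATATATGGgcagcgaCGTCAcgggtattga
Egr4, chr6:85513684-85513776, minus strand: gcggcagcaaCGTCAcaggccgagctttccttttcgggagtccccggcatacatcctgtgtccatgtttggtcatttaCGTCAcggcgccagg
Nr4a1, chr15:101266603-101266820, plus strand: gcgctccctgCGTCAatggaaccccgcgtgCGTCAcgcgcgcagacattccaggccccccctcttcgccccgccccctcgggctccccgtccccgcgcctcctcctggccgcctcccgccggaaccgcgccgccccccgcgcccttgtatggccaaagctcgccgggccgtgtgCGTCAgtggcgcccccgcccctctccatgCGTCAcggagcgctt
Nr4a3, chr4:48045064-48045152, plus strand: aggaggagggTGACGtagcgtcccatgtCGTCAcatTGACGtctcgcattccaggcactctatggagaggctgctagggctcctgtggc

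Nr4a1 and Nr4a3 held the most cores, 4 each in the window, and Fosb and Junb held 1 each. The stretch of Nr4a3 shows 3 of its 4, since the last lies in bases that the annotation gives to an exon. For Egr2 the CArG box shown lay between a pair of cores, and this stretch is inside the span of the gene model, downstream of the first listed start. Another CArG box of Egr2 lay in a window that held no core, and its stretch is not shown. Npas4 (chromosome 19, 4984355 to 4990316, minus strand, GENCODE M21 on GRCm38) held 2 cores, in bases that the annotation gives to an exon, and no stretch of it is shown. Ier2 lies on chromosome 8 from 84661331 to 84662852, on the minus strand. The exons of Junb share 173 of their 2301 bases with Prdx2 on the other strand. How reads in those bases were counted is not known, since the strand setting is not given.

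Per kilobase of exon, Egr1, a zinc finger factor with a steady level in cortex, was the most abundant of the 10, with a mean of 36.96 CPM per kb over all libraries. Junb, the AP-1 partner of the Fos proteins, followed at 19.1 CPM per kb and Nr4a1, an orphan nuclear receptor, at 14.5 CPM per kb. Egr4 stood at 9.04, Nr4a3 at 6.64, Fos at 4.08 and Ier2 at 3.24 CPM per kb. Npas4, a factor induced by calcium in neurons, Fosb and Egr2 were the scarcest on this scale, at 1.74, 1.63 and 0.863 CPM per kb. The mean levels that follow are CPM, with the SD over libraries (n = 12 in both parts of the striatum and of the hippocampus, n = 11 in amygdala and cortex, n = 8 in prefrontal cortex). Levels of deeper and shallower regions are set side by side and were not tested against each other.

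The AP-1 genes had their highest means in cortex or prefrontal cortex. Fos, whose product pairs with Jun proteins to form AP-1, averaged 19.5 ± 6.598 CPM in cortex and 12.9 ± 4.29 CPM in prefrontal cortex, and between 5.80 ± 3.81 (ventral hippocampus) and 9.19 ± 2.95 (amygdala) elsewhere. The lowest cortex library, at 11.1 CPM, lay within the range of the other regions. Fosb ranged from 6.64 ± 4.28 CPM in ventral hippocampus to 14.3 ± 5.69 CPM in prefrontal cortex. Junb varied least across regions, from 34.7 ± 7.80 CPM in dorsal striatum to 57.9 ± 14.1 CPM in prefrontal cortex, a ratio of 1.67. For Fosb and Junb, neighbouring regions in the order of means overlapped throughout.

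The Egr genes, zinc finger factors that share a GC-rich element, did not have 1 order. Egr1 was highest in cortex (274 ± 41.6 CPM, range 199.7 to 360) and dorsal striatum (239 ± 50.5) and lowest in dorsal hippocampus (89.9 ± 25.2) and ventral hippocampus (82.0 ± 51.5). Every cortex library was above every dorsal hippocampus library, whose highest value was 130 CPM. Egr2 was highest in dorsal striatum (5.85 ± 2.94 CPM) and cortex (4.57 ± 2.56), and averaged 0.776 ± 0.416 CPM in dorsal hippocampus. In ventral hippocampus Egr2 had no reads in 8 of 12 libraries and no more than 3 counts in any, so its level there lay at or under the limit that the depth allows. Egr4 had the highest means in prefrontal cortex (28.2 ± 5.10 CPM), cortex (26.4 ± 8.60) and amygdala (25.4 ± 8.35) and the lowest in dorsal striatum (13.1 ± 2.43).

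Npas4 averaged 10.4 ± 5.23 CPM in prefrontal cortex, 10.2 ± 5.55 in cortex, 8.83 ± 3.67 in dorsal striatum and 8.28 ± 4.09 in ventral striatum, and 3.39 ± 2.17 in ventral hippocampus. The first 4 of these overlapped almost entirely. Nr4a1 followed a like order, with 73.4 ± 22.1 CPM in cortex and 31.1 ± 10.0 CPM in ventral hippocampus. Nr4a3, a receptor of the same family, had its highest mean where Nr4a1 had its lowest, with 71.1 ± 29.9 CPM in ventral hippocampus, 59.6 ± 21.8 in dorsal hippocampus and 51.6 ± 22.4 in amygdala, against 16.6 ± 5.85 in dorsal striatum and 16.2 ± 6.82 in ventral striatum. Ier2 was highest in cortex (11.05 ± 4.603 CPM) and lowest in dorsal striatum (1.64 ± 1.12) and ventral striatum (1.56 ± 0.792), where the highest library reached 3.75 and 2.91 CPM.

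**Figure D1:**
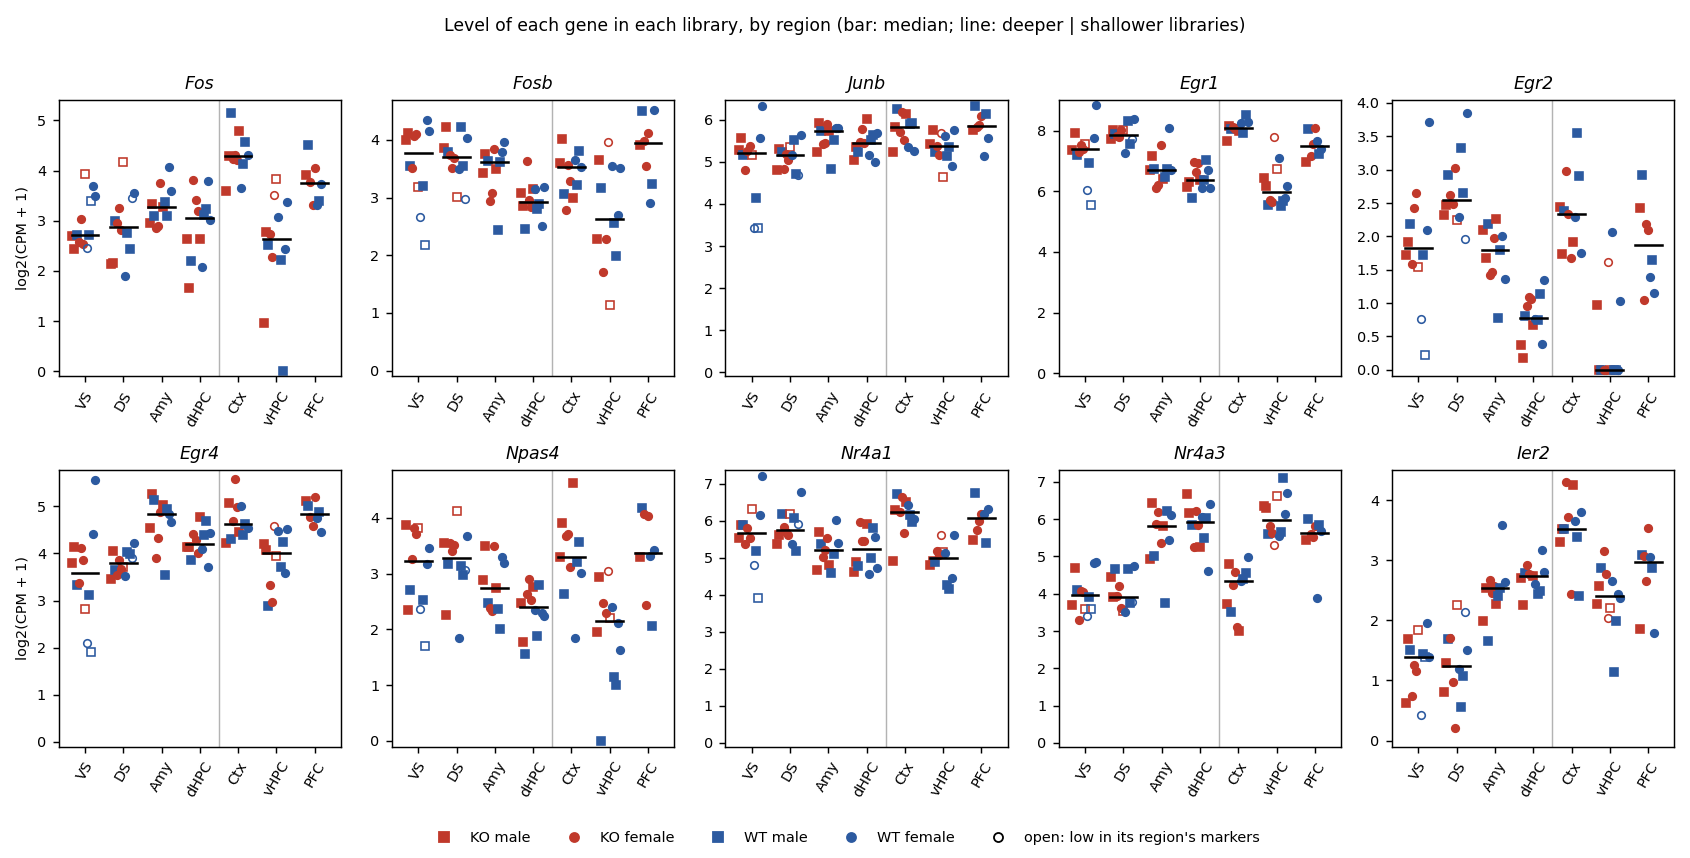
Level of each of the 10 genes in each library as log2(CPM + 1), by region, with KO in red, WT in blue, males as squares and females as circles; bars are medians, open symbols are the 7 libraries low in the markers of their region, and the vertical line parts the deeper from the shallower regions. Nr4a3 and Ier2 are lower in the striatum (means of 16.2 and 1.56 CPM in ventral striatum) than in the amygdala and hippocampus, and KO and WT symbols are mixed in every panel.

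Pairs of regions were tested by edgeR's quasi-likelihood method, with Benjamini-Hochberg adjustment over all genes tested and a threshold of 0.05. These main fits had the sex and genotype group as covariate and treated libraries of the same mouse as independent. The pairing by mouse entered only the alternative fit with the mouse as a replicate block, whose changed calls are given below. Over the 9 pairs of regions, 40 of the 84 tests of these genes passed (44 with DESeq2). Most genes differ between brain regions, so each count is set beside the share of all genes that passed. Ventral and dorsal striatum were the closest pair, with 13.7% of all genes passing and 0 of the 10 in edgeR or DESeq2, although 2 had an unadjusted p under 0.05 in edgeR. Egr2 had the smallest adjusted p there, 0.0854, with a ventral minus dorsal difference of -0.83 (log2, SE 0.329). With the mouse as a replicate block that difference was -0.94 and passed (adjusted p 0.0358, edgeR), and without mouse 24 Egr1 and Egr2 passed. For Fos, Junb, Egr4 and Ier2 the 95% intervals of the ventral minus dorsal difference ran from -0.51 to 0.54, -0.46 to 0.39, -0.49 to 0.49 and -0.67 to 0.54.

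Against the amygdala, both parts of the striatum were lower in Nr4a3, Ier2 and Egr4. Ventral striatum minus amygdala was -1.70 for Nr4a3 (SE 0.258, edgeR adjusted p 8.13e-07), -1.66 for Ier2 (SE 0.281, adjusted p 5.49e-06) and -0.95 for Egr4 (SE 0.271, adjusted p 0.00361), on the log2 scale. These were the 3 of 10 that passed, below the 46.9% of all genes. Dorsal striatum minus amygdala passed for 6 of 10, near the background of 55.6%, with Egr1 (1.02), Egr2 (1.19) and Nr4a1 (0.62) higher in dorsal striatum and Nr4a3 (-1.63), Ier2 (-1.59) and Egr4 (-0.95) lower. The call on Nr4a1 was lost without mouse 12 (adjusted p 0.0807), and without the libraries low in striatal markers 9 of 10 passed (Fos, Fosb and Junb added). For ventral striatum against amygdala the count was 6 of 10 with the mouse as a replicate block (Junb, Egr1 and Nr4a1 added), 6 without the libraries low in striatal markers (Fosb, Egr1 and Nr4a1 added), and up to 5 with a mouse left out.

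Against the dorsal hippocampus each part of the striatum had 6 of 10 genes that passed, near the share of all genes (53.9% for ventral and 54.7% for dorsal striatum). Fosb (0.73 and 0.80), Egr1 (0.90 and 1.38), Egr2 (2.03 and 2.86) and Npas4 (0.83 and 1.01) were higher in ventral and dorsal striatum, and Nr4a3 (-1.95 and -1.87) and Ier2 (-1.90 and -1.83) were lower. Both comparisons share the hippocampus libraries. With the mouse as a replicate block the counts were 8 for ventral striatum (Junb and Egr4 added) and 7 for dorsal striatum (Nr4a1 added). Ventral striatum had 7 without the libraries low in markers (Nr4a1 added, 0.56, edgeR adjusted p 0.0317). The smallest adjusted p of edgeR was 1.69e-08 for Nr4a3 in the ventral and 1.90e-08 for Egr2 in the dorsal comparison. Amygdala minus dorsal hippocampus passed for 2 of 10, Fosb (0.54) and Egr2 (1.67), beside 39.1% of all genes. The call on Fosb was lost with the mouse as a replicate block, without the filter on low counts, and without mouse 3 (adjusted p 0.109).

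In the shallower set, 8 genes could be tested, since Egr2 and Ier2 did not pass the filter on low counts. Cortex and ventral hippocampus differed in 7 of these 8, where 29.3% of all genes did. Fos (1.76), Junb (0.41), Egr1 (1.78, SE 0.203, edgeR adjusted p 1.19e-08), Egr4 (0.84), Npas4 (1.50) and Nr4a1 (1.27) were higher in cortex, and Nr4a3 was lower (-1.95, SE 0.237, adjusted p 4.55e-08). Ventral hippocampus minus prefrontal cortex passed for all 8 tested (30.9% of all genes), in a comparison that shares its ventral hippocampus libraries with the one before. Fos (-1.104), Fosb (-1.03), Junb (-0.41), Egr1 (-1.11), Egr4 (-0.86), Npas4 (-1.54) and Nr4a1 (-0.998) were lower in ventral hippocampus and Nr4a3 was higher (0.63, adjusted p 0.0318). Nr4a3 did not pass with the mouse as a replicate block (0.35, adjusted p 0.203) or without mouse 13 (adjusted p 0.106), and Junb did not pass without mouse 3 (adjusted p 0.103) or, against cortex, without mouse 5 (adjusted p 0.0848). Leaving out a mouse brought the count for ventral hippocampus against prefrontal cortex down to 5. Cortex minus prefrontal cortex passed for Egr1 (0.68) and Nr4a3 (-1.32) of the 8 tested, beside 39.4% of all genes. With the 2 ventral hippocampus libraries low in markers left out of the common fit, Fosb also passed for cortex against ventral hippocampus (0.70, edgeR adjusted p 0.0491), giving 8 of 8, and Fos for cortex against prefrontal cortex (0.66, adjusted p 0.0300), giving 3 of 8.

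KO and WT mice were compared within each region, which asks whether loss of ACSS2 goes with another level of these genes after drinking. None of the 10 passed the test in any region. With both sexes in the fit and sex as a covariate, 0 of 63 tests passed in edgeR and 0 in DESeq2, and 2 (3.17%) had an unadjusted p under 0.05, where 4.86% of all tests did. The share of all genes that passed was 0.00708% in ventral striatum, 0.00689% in dorsal striatum, 0.00657% in amygdala, 0.0069% in dorsal hippocampus, 0.00947% in cortex and 0.00929% in ventral hippocampus. In each of these the gene was Acss2 alone. In the prefrontal cortex the share was 0.0925%, or 11 genes, among them Rgs9, Adora2a and Ppp1r1b, markers of striatal projection neurons. The mean of the 9 striatal markers there was 5.82 to 7.41 in KO and 3.88 to 4.89 in WT libraries, without overlap. Its part in the values of the 10 genes was not tested.

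Nor did any gene have KO and WT ranges that lay apart in a region. The share of all genes with at least 1 CPM whose ranges did so was 0.39% in ventral striatum, 0.0542% in dorsal striatum, 0.17% in amygdala, 0.0965% in dorsal hippocampus, 0.531% in cortex, 0.159% in ventral hippocampus and 3.86% in prefrontal cortex. Median differences over the tested members ran from -0.10 in dorsal striatum to 0.15 in dorsal hippocampus on the log2 scale, beside medians of all genes between -0.02 and 0.01. With the libraries low in markers left out the median was -0.48 in ventral striatum, with 8 of 10 genes below 0, -0.24 in dorsal striatum, with 8 of 10 below 0, and -0.16 in ventral hippocampus. None passed in those fits, and the smallest adjusted p in ventral striatum was 0.974, also that of Fos (-0.65, SE 0.224, unadjusted p 0.0145). The 95% intervals were wide, with bounds that reached from -1.53 to 1.68 over all regions, so these libraries limit the difference of the most variable genes only to that range. In the ventral hippocampus Fos, Egr2, Npas4 and Ier2 were not tested, and Egr2 was not tested in dorsal hippocampus, cortex or prefrontal cortex.

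In the fits of both sexes the 2 unadjusted p-values under 0.05 belonged to Npas4, in ventral striatum and in cortex. In ventral striatum the KO libraries held 13.7, 4.07 and 13.1 CPM (males 1, 2 and 10) and 8.63, 13.1 and 12.03 CPM (females 4, 5 and 6). The WT libraries held 5.56, 4.78 and 2.26 CPM (males 3, 12 and 13) and 4.13, 7.99 and 10.0 CPM (females 11, 23 and 24). Of the KO libraries, 4 lay above every WT library and mouse 2 lay below 5 of them. The difference was 0.93 (log2, SE 0.336, 95% interval 0.20 to 1.65), and its edgeR adjusted p was 0.651. In cortex Npas4 was at 7.70 to 23.7 CPM in KO and 2.58 to 10.8 CPM in WT mice, which rests on 7 to 17 and 2 to 10 counts per library. The difference of 0.95 (SE 0.356, 95% interval 0.22 to 1.68) had an adjusted p of 0.747. Without the libraries low in striatal markers the difference in ventral striatum was 0.49 (adjusted p 0.974). The mean of Npas4 was higher in KO than in WT mice in every region, with overlapping ranges. KO and WT means were 10.3 and 7.41 CPM in dorsal striatum, 6.83 and 5.73 in amygdala, and 4.88 and 3.71 in dorsal hippocampus. They were 4.80 and 1.98 in ventral hippocampus and 11.1 and 9.73 in prefrontal cortex. Within a sex, female amygdala and male prefrontal cortex had the reverse order. The regions share their mice, and this common direction was not tested.

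**Figure D2:**
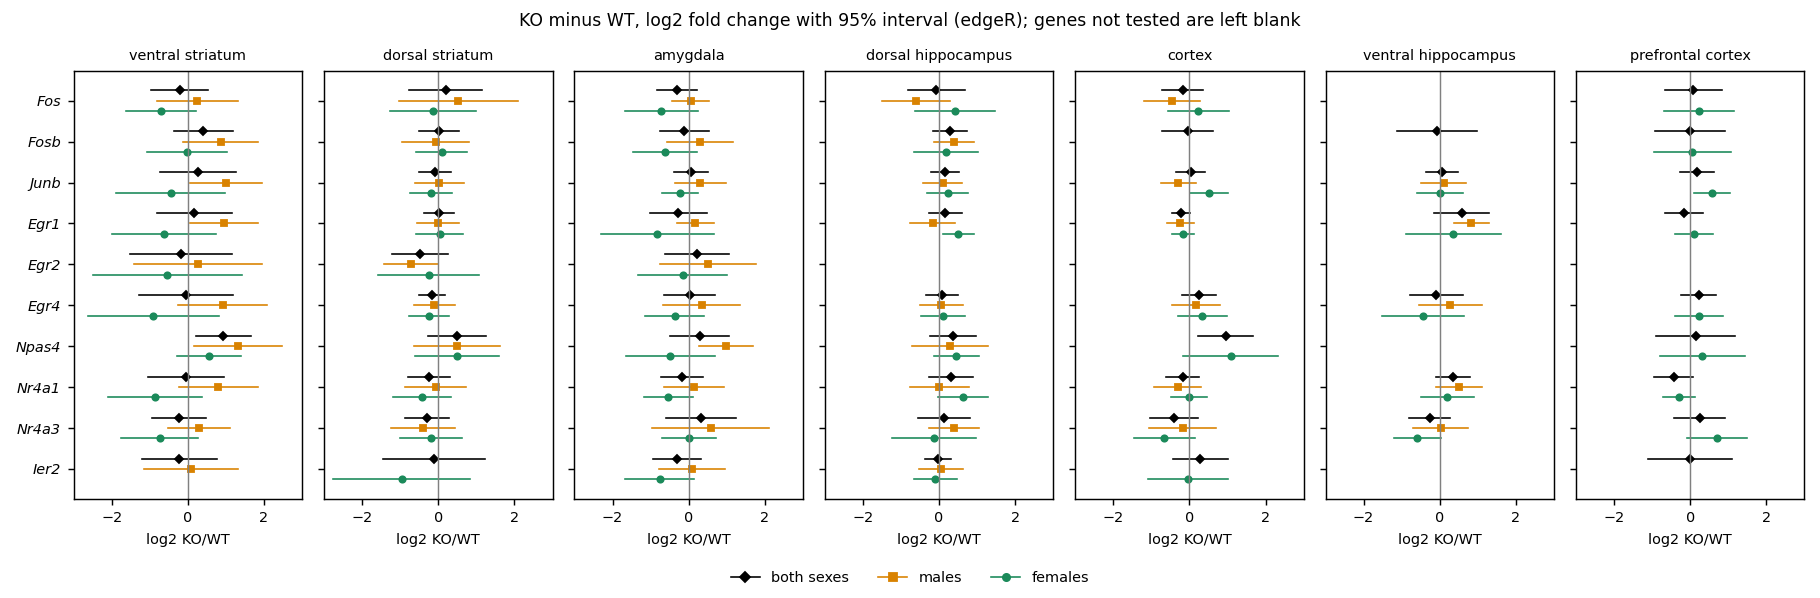
Log2 ratio of KO to WT for each gene (rows) in each region (panels), from edgeR, with 95% intervals, for both sexes together (black diamonds), males (orange squares) and females (green circles); genes that were not tested are blank. In ventral striatum and amygdala the male points lie right of 0 for all 10 genes, from 0.08 to 1.32 and from 0.05 to 0.98, and most intervals cross 0.

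The tests within a sex asked the same of males and females apart. They called 0 of 108 tests of these genes in edgeR and 0 in DESeq2, and 9 (8.33%) had an unadjusted p under 0.05 beside 4.53% of all tests. The share of all genes called was 0% in ventral and dorsal striatum of either sex and in female amygdala, and lay between 0.00706% and 0.0398% in male amygdala (0.00706%), male and female dorsal hippocampus (0.00721% and 0.00707%), male and female cortex (0.0103% and 0.0398%) and male and female ventral hippocampus (0.00996% and 0.00993%). It was 0.452% in female prefrontal cortex. Where the share was 0%, Acss2 itself did not pass, so those tests missed even the gene with the deletion. In simulated data for ventral striatum, a change of 1 (log2) was called for 31.2% of genes in males and 73.7% with both sexes. A count of 0 within a sex therefore does not show that KO and WT levels were equal. In male ventral striatum all 10 differences were above 0 (median 0.83, where the median of all genes was 0.02), and the smallest adjusted p was 0.496 for Npas4 (1.32, 95% interval 0.17 to 2.47). In female ventral striatum 8 of the 9 tested were below 0 (median -0.62), each with an adjusted p of 1.00. Male amygdala likewise had all 10 above 0 (median 0.31) and female amygdala 9 of 10 below 0 (median -0.51). The genes of a region share their libraries, so such a row of like signs is 1 pattern of libraries and not 10 observations.

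The values of a pair of genes show how the libraries lay in ventral striatum. Egr1 read 162, 239 and 187 CPM in male KO, 147, 121 and 45.6 CPM in male WT, 157, 183 and 168 CPM in female KO, and 64.5, 215 and 459 CPM in female WT mice, in the order of mice given above. Junb read 37.7, 46.5 and 34.6 CPM in male KO, 34.9, 16.6 and 9.83 CPM in male WT, 26.9, 37.2 and 40.3 CPM in female KO, and 9.80, 46.5 and 79.6 CPM in female WT mice. For these genes the KO mice of both sexes sat close together, and the WT mice held both extremes, male 13 and female 11 at the low end and female 24 at the high end. Fos did not lie so, at 4.44 to 14.2 CPM in KO and 4.47 to 11.98 CPM in WT mice, nor did Npas4, whose highest value was in a KO mouse. The ventral striatum libraries of mice 13 and 11 were low in striatal markers. So was that of KO mouse 10 (marker mean 6.29), whose Egr1 of 187 CPM and Junb of 34.6 CPM lay among those of the other KO mice. Mouse 24 was highest of all 12 in Nr4a1 (147 CPM, where the next was 78.9), Egr4 (46.4) and Egr2 (12.2).

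Whether males and females differed in their KO minus WT value was tested as an interaction in 6 regions, and 0 of 54 tests passed in edgeR (0 in DESeq2, with 2 at an unadjusted p under 0.05). No gene of the whole table passed in any of the 6 regions (0%). In ventral striatum the interaction, male minus female, was above 0 for all 10 genes, with a median of 0.98 and adjusted p of 0.943 to 0.964. In amygdala it was above 0 for all 10, with a median of 0.74, adjusted p of 0.880 to 0.926, and the smallest p for Npas4 (1.47, SE 0.574, adjusted p 0.880). Without the 3 ventral striatum libraries low in striatal markers the interaction was still above 0 for all 10, 7 had an unadjusted p under 0.05, and the smallest adjusted p was 0.367 (Egr4 2.27, SE 0.546, and Egr1 1.68, SE 0.440). The fits of each sex without those libraries held 4 males and 5 females. In the males the median difference was 0.50 (0.83 with all libraries), with Fos (-0.11), Egr2 (-0.15) and Ier2 (-0.33) below 0. In the females 8 of the 9 genes tested were below 0, with a median of -1.06, Egr4 at -1.41 and Nr4a1 at -1.28 (adjusted p 0.841).

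Elsewhere single genes stood out within a sex without passing. In male ventral hippocampus Egr1 read 86.3, 70.5 and 104 CPM in KO and 46.1, 44.9 and 50.6 CPM in WT mice, without overlap, where 11.9% of all genes had male ranges that lay apart. The difference was 0.83 (SE 0.209, 95% interval 0.38 to 1.28, edgeR adjusted p 0.304). In the females the same gene read 51.1, 48.6 and 220 CPM in KO and 136, 54.1 and 71.8 CPM in WT mice, and the KO value of 220 CPM is mouse 6, the library with low hippocampal and high striatal markers. The male KO value of 104 CPM is mouse 10, whose library also had low hippocampal markers. Without both, the difference was 0.69 in males (edgeR adjusted p 0.563) and -0.81 in females (adjusted p 0.912), and the interaction was 1.51 (SE 0.426, unadjusted p 0.00267, adjusted p 0.470). Without the filter on low counts Egr1 passed in male ventral hippocampus (0.86, adjusted p 0.028) and in both sexes together (adjusted p 0.0359). The KO minus WT difference of Junb was 0.52 in female cortex (edgeR adjusted p 0.469) and 0.58 in female prefrontal cortex (adjusted p 0.389), a region with the library of mouse 23 whose sex markers go against its label. Without mouse 23, Nr4a3 passed in female prefrontal cortex and Egr1 and Nr4a1 passed in female dorsal hippocampus, with 1 and 2 WT libraries left, a lone one being assumed to vary like the other group. The single male KO prefrontal cortex library held Npas4 at 8.78 CPM and Nr4a3 at 42.2 CPM, inside or below the range of the WT males (3.18 to 16.99 and 56.1 to 63.2 CPM).

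How the 10 genes varied from mouse to mouse was then examined. For each gene and region, the mean of its sex and genotype group was subtracted from log2(CPM + 1). In ventral striatum the SD of these values had a median of 0.73 over the 10 genes, beside 0.26 over all genes of at least 1 CPM, and 9 of the 10 exceeded the 90th percentile of all genes. The medians were 0.50 against 0.26 in dorsal striatum, 0.45 against 0.22 in amygdala and 0.37 against 0.25 in dorsal hippocampus, with 3 genes over the 90th percentile in each. Leaving out the libraries low in markers gave medians of 0.43 against 0.22 in ventral striatum, with 4 genes over the 90th percentile, and 0.52 against 0.21 in dorsal striatum, with 6. In the shallower regions, where counting adds to the spread, they were 0.49 against 0.36 in cortex, 0.54 against 0.39 in ventral hippocampus and 0.53 against 0.34 in prefrontal cortex. Egr4 spanned 2.74 to 46.4 CPM in ventral striatum and 9.94 to 17.8 CPM in dorsal striatum, a ratio of highest to lowest of 16.9 against 1.79.

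**Figure D3:**
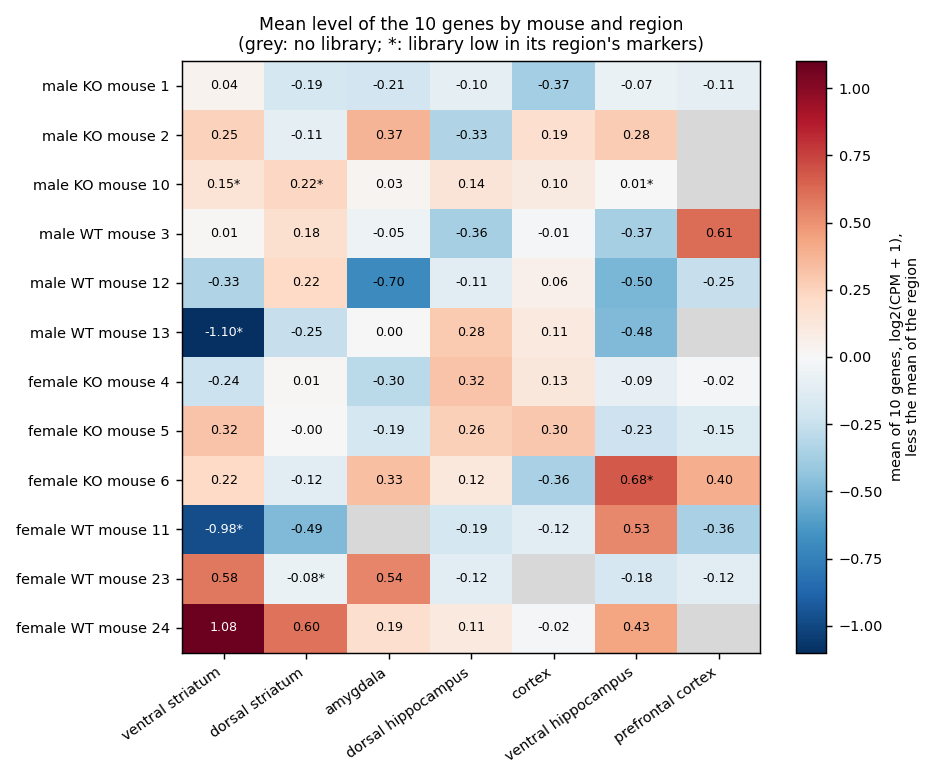
Mean of the 10 genes as log2(CPM + 1) less the mean of the region, for each mouse (rows) and region (columns); grey marks no library and an asterisk a library low in the markers of its region. Ventral striatum holds both extremes, 1.08 in female WT mouse 24 and -1.096 and -0.98 in WT mice 13 and 11, and no mouse is far from 0 in the same direction in all of its regions.

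The 10 genes correlated with each other most in ventral striatum when all libraries were used. Over its 12 mice the median Pearson r of the 45 pairs was 0.644, with 44 pairs above 0 and 30 (66.7%) above 0.5. A pair of 1 member and 1 of the 14605 other genes had a median r of -0.113, with 13.4% above 0.5. The medians were 0.450 in dorsal striatum, 0.447 in amygdala, 0.294 in cortex, 0.228 in dorsal hippocampus and 0.173 in ventral hippocampus, and the shares above 0.5 were 40%, 40%, 15.6%, 27.8% and 13.9%. The share with other genes in those regions was between 8.07% and 12.4%. The points are mice, and all genes of a library share its dissection, RNA and depth. Without the libraries low in markers the median in ventral striatum was 0.295 (n = 9, 16 pairs above 0.5) and in dorsal striatum 0.609 (n = 10, 31 pairs above 0.5), which reverses their order. Leaving out single mice moved the ventral striatum median between 0.412 (without mouse 11) and 0.841 (without mouse 2).

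Within ventral striatum most of the genes correlated with the rest. Junb had an r of 0.972 with the mean of the other 9 genes, Egr1 0.954, Egr2 0.920, Nr4a1 0.913, Egr4 0.910, Fosb 0.844 and Nr4a3 0.797. Fos, the gene most often taken to stand for this class, had an r of 0.256 there, below Npas4 (0.544) and Ier2 (0.588). The order differed elsewhere: in amygdala Egr4 (0.891), Junb (0.889) and Nr4a1 (0.861) led and Ier2 (0.111) was last, and in dorsal striatum Nr4a1 (0.961) and Egr1 (0.858) led, with Fos at 0.611. In prefrontal cortex, over 8 mice, Fos had the highest r of the 10 (0.961). Without the libraries low in markers Fos had an r of -0.0296 in ventral striatum and 0.938 in dorsal striatum, and in ventral striatum Egr4 (0.902), Egr2 (0.861) and Junb (0.857) led, with Npas4 at -0.0350 and Ier2 at 0.0973. Nr4a3 had a negative r with the rest in dorsal hippocampus (-0.318) and ventral hippocampus (-0.403), where Ier2 did also (-0.332). With Nr4a1 in dorsal hippocampus Nr4a3 had an r of -0.722 (Spearman -0.608).

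Permutation tests of single pairs, two-sided and with mice exchanged only within their sex and genotype group, found none of 252 pairs under 0.05 after Benjamini-Hochberg adjustment, with 46 at an unadjusted p under 0.05. With at most 1296 distinct arrangements the test has little room. The smallest adjusted p was 0.0658, reached by 8 pairs, among them Junb with Egr4 in ventral striatum (r 0.939, Spearman 0.923, 0.801 without the 2 mice farthest from the median) and in amygdala (r 0.951, Spearman 0.964, 0.921 without the 2). Egr1 with Nr4a1 in dorsal hippocampus also reached it (r 0.773, Spearman 0.755, 0.774 without the 2). In cortex Junb and Nr4a1 had an r of 0.957 (Spearman 0.955, adjusted p 0.0798). Among the 52 pairs with Fos, none passed, and the smallest adjusted p was 0.284, for Fos with Nr4a1 in dorsal striatum (r 0.763, Spearman 0.797, 0.665 without the 2).

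**Figure D4:**
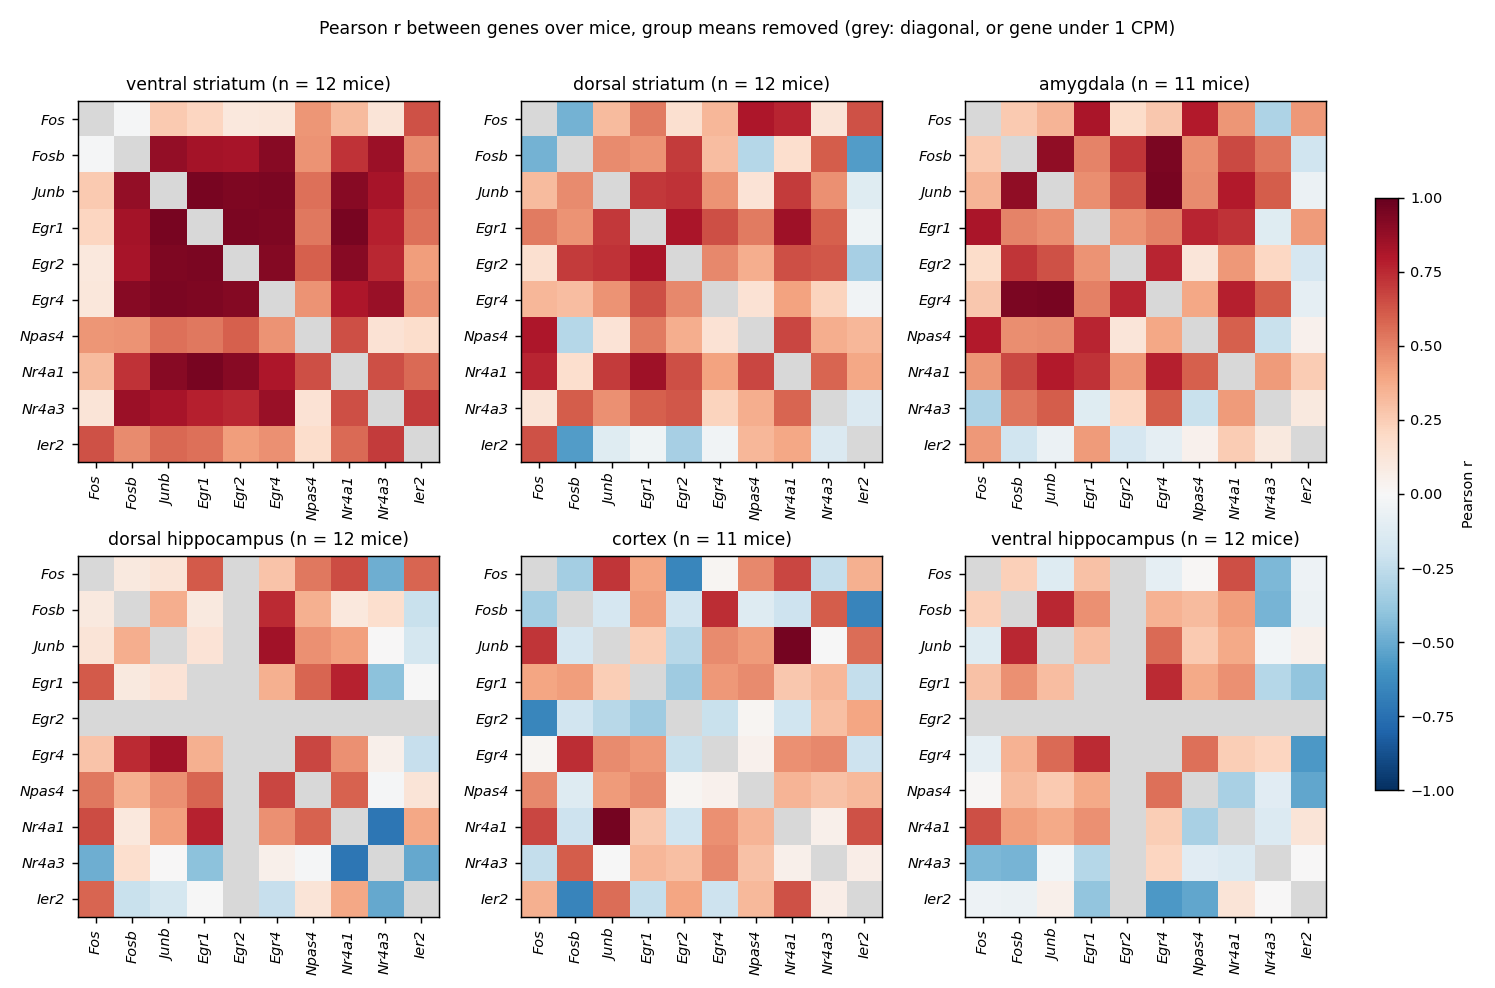
Pearson r between each pair of the 10 genes over the mice of 6 regions, with the mean of each sex and genotype group removed; red is positive, blue is negative, and grey is the diagonal or a gene below 1 CPM. Ventral striatum holds a block of high values from Fosb to Egr4 with Nr4a1 and Nr4a3 (median of all pairs 0.644), Fos is pale in that panel, and ventral hippocampus is mixed (median 0.173).

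Levels of the marker lists and depth also correlated with the genes, in a direction that for most lists differed between regions. In ventral striatum the mean of the 10 genes had an r of 0.683 with the striatal marker mean and of -0.701 with the astrocyte marker mean over 12 mice. In amygdala the r was -0.882 with the astrocyte markers and 0.777 with the cortical excitatory markers over 11 mice. In dorsal striatum the r with the striatal markers was -0.133, in dorsal hippocampus -0.553 and in ventral hippocampus 0.638. With the cortical excitatory markers it was -0.564 in prefrontal cortex over 8 mice, where the endothelial markers had the largest r of all, -0.936. Oligodendrocyte markers had an r of 0.664 in ventral hippocampus and -0.521 in amygdala. The r with the astrocyte markers was negative in every region and weakest in cortex (-0.189). Library depth had an r of -0.466, -0.436, -0.421 and -0.408 in ventral striatum, dorsal striatum, amygdala and cortex, and of -0.0518, 0.0709 and 0.172 in dorsal hippocampus, ventral hippocampus and prefrontal cortex. The part of cell makeup and depth in the shared movement of the 10 genes was not tested beyond leaving out the libraries low in markers.

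The levels of a gene in different regions of the same mouse were compared next. Over 12 mice, all 10 genes had a positive r between the 2 parts of the striatum, with a median of 0.659, where the median over all genes was 0.112. Nr4a1 had the highest, 0.933 (Spearman 0.881, permutation p 0.00298, adjusted p 0.167 over 66 such tests, 0.869 without the 2 mice farthest from the median). Egr1 (0.878), Fos (0.843) and Npas4 (0.835) followed, and Fosb (0.322) and Junb (0.349) were lowest. None of the 66 tests passed after adjustment. Nr4a1 read 147 and 109 CPM in ventral and dorsal striatum of mouse 24 and 14.02 and 35.3 CPM in mouse 13, the top and bottom mice in both parts. Without mouse 24 the median r of the 10 genes was 0.417, and without the libraries low in striatal markers it was 0.106 over 8 mice, with 7 of 10 positive. No other pair of regions came near the full value: the medians were 0.315 for dorsal striatum with dorsal hippocampus, 0.175 for cortex with ventral hippocampus, 0.0230 for ventral striatum with dorsal hippocampus, -0.0721 for ventral striatum with amygdala, -0.109 for amygdala with dorsal hippocampus and -0.199 for dorsal striatum with amygdala.

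**Figure D5:**
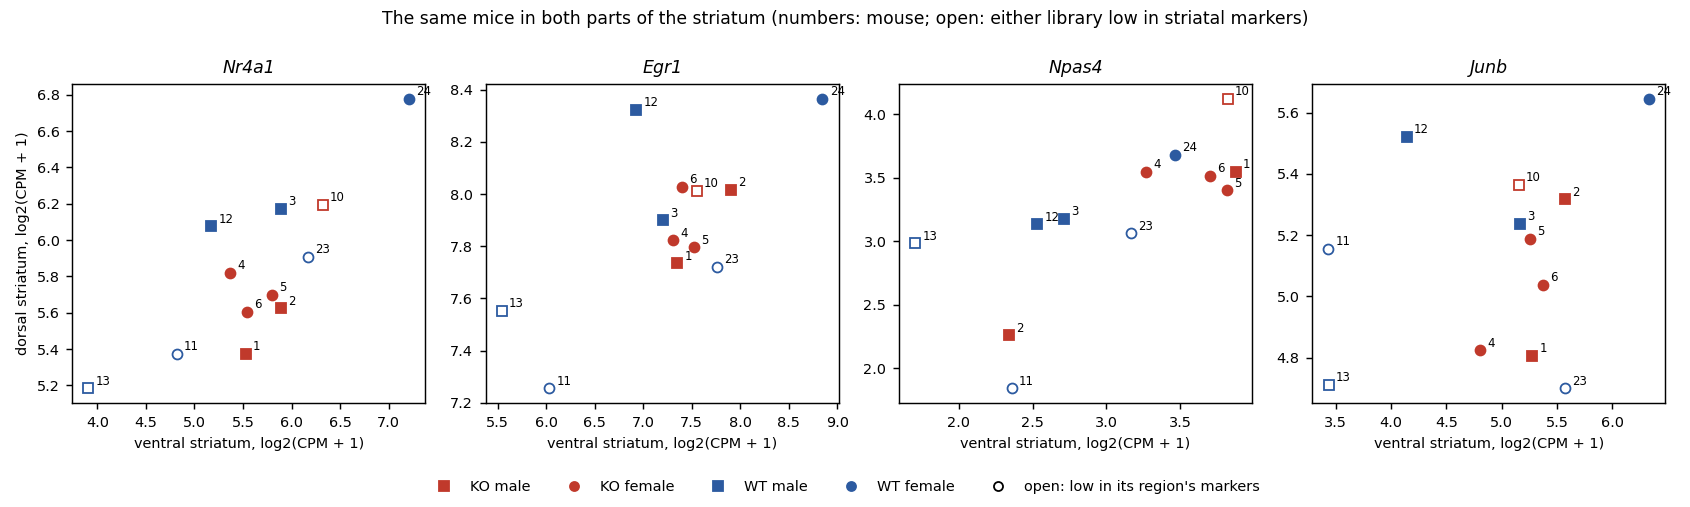
Level in dorsal striatum against level in ventral striatum of the same mouse, as log2(CPM + 1), for Nr4a1, Egr1, Npas4 and Junb; numbers are mice, symbols are as in the plot of levels by region, and open symbols mark mice with either library low in striatal markers. Mouse 24 is at the top right and mouse 13 near the bottom left for Nr4a1 (r 0.933), Egr1 (r 0.878) and, less so, Junb (r 0.349). Each r was taken with the mean of each sex and genotype group removed, whereas the plotted points keep it.

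The genes most like the 10 were sought over all 78 libraries, by the r of each of 11750 genes of at least 5 CPM with their mean, each value less the mean of its sex, genotype and region. Homer1, a scaffold of the postsynaptic density, came first (r 0.749), then Arc, an immediate early gene that acts at synapses (0.737), and Per1, a clock gene with cAMP response elements (0.704). Cx3cl1 (0.702), Klf9 (0.681), Rprml (0.674), Tmem121b (0.661), Dusp6 (0.647), Prkcb (0.646) and Plk2 (0.641) completed the first 10. Arc and Dusp6, a phosphatase that switches off ERK, had an r over 0.5 in 7 of 7 regions, while Prkcb stood at -0.580 and Klf9 at -0.310 in their lowest region. Among the 10 themselves, Junb (0.796), Nr4a1 (0.786), Egr1 (0.763) and Egr4 (0.736) had the highest r with the mean of the other 9, and Fos (0.302), Nr4a3 (0.254) and Ier2 (0.180) the lowest. Over the 71 libraries left without those low in markers, 4 of these first 10 genes were still among the first 10: Arc (0.693, first), Dusp6 (0.642), Homer1 (0.611) and Cx3cl1 (0.564). Klf9 then ranked 77 and Rprml 78.

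Lists of related genes were set beside the 10 by role, without a test between lists. Of 9 feedback inhibitors measured at that level, 5 had an r over 0.5 (median 0.541), with Per1, Dusp6, Spry2 (0.587), Dusp1 (0.550) and Nab2 (0.541), a corepressor of Egr factors. Of 10 effectors, a list of activity-induced genes that includes the immediate early gene Arc, 5 did (median 0.523). Of 10 other rapid transcription factors and regulators, 2 did, Egr3 (0.624) and Ier5 (0.613), with a median of 0.340. None of the 9 inducers, the factors that switch the class on and are present beforehand, reached 0.5 (median 0.149). Over all genes the median was -0.0586 and 1.16% exceeded 0.5. When the libraries low in markers were left out, 2 feedback inhibitors, 4 effectors, 1 other rapid factor and 0 inducers exceeded 0.5, beside 0.272% of all genes. Astrocyte markers lay at the other end, with a median of -0.484 over 5 genes and Gja1 at -0.610.

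Between KO and WT, 0 of 282 tests of these 4 lists with both sexes, 0 of 505 within a sex and 0 of 243 interactions passed in edgeR, and 15, 37 and 19 had an unadjusted p under 0.05, where 4.86%, 4.53% and 4.25% of the tests of all genes did. DESeq2 called 0, 2 and 0 of them, the 2 being Nr4a2 in female dorsal hippocampus and Nrn1 in female prefrontal cortex. The lowest edgeR adjusted p was 0.0661, for an effector within a sex. Between regions, where 41.1% of the tests of all genes passed over the 9 pairs, the lists lay on both sides of that share, with 44 of 105 tests of the other rapid transcription factors passing, 30 of 81 of the inducers, 28 of 87 of the feedback inhibitors and 48 of 90 of the effectors. Jun, the main partner of Fos, was lower in the striatum than in dorsal hippocampus, with differences of -2.85 (ventral, edgeR adjusted p 3.36e-17) and -2.89 (dorsal, adjusted p 1.75e-17). Gadd45g, a DNA damage-inducible gene, had -1.79 in ventral striatum against dorsal hippocampus (adjusted p 8.94e-16). In cortex against ventral hippocampus Mef2c, an inducer, was higher by 1.88 (adjusted p 2.72e-12).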

How the data were processed

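The samples are 78 poly(A) RNA libraries of 7 brain regions from 12 mice. The authors deposited raw read counts per gene symbol, in 1 table for each sex. Per the submitters' processing notes, STAR 2.5.2a, SAMtools 1.1, HTSeq 0.6.1, DESeq2 and R 4.0.2 and the GRCm38 (mm10) build were used; their roles, the annotation and the strand setting are not given in the sources used here. Titles give the region, genotype, sex and mouse of each library, and libraries with the same mouse number come from the same animal, so regions are paired by mouse.

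The members and the lists of related genes and markers were chosen with earlier results of these data known. CPM were taken by column total. Differences were tested with edgeR 4.0.16 (quasi-likelihood test, TMM, filterByExpr, limma 3.58.1, R 4.3.3) on all genes, with Benjamini-Hochberg adjusted p-values and a threshold of 0.05, and log2 fold changes carry the model's standard error (SE). DESeq2 1.42.0 was an alternative. KO was compared with WT in 7 fits with both sexes and in 13 fits of 1 sex, the sex difference in 6 and regions in 9 pairs. Correlations used log2(CPM + 1), genes of at least 1 CPM on average, and 100000 resamples, which draw from at most 1296 distinct arrangements of the mice. Gene positions are from GENCODE M21. The fitting steps were tested on simulated data. Named genes are all 10 members, the list genes with the smallest adjusted p (at most 3 per comparison) and the 10 genes most like the members. Counts limit precision, and floors of 3 counts cover counting error only, since reads carry no molecular identifiers. Alternatives were size factors, no low-count filter, DESeq2, each mouse left out, the mouse as a replicate block, other pseudocounts (0.5 and 4) and, chosen after seeing the data, the libraries low in markers left out, group means kept, and the tests of all pairs of members.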

Additional observations from a re-analysis of the deposited data

Results flagged for a closer look

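In 140 groups of 4 to 6 libraries (10 genes, 7 regions and 2 genotypes, sexes together), 8 had a highest or lowest library whose gap to the next exceeded the 95% critical value of Dixon's test, where chance alone gives about 7, or 1 in 20. The stray library was the lowest in 7 of them and the highest in 1.

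The highest was Egr1 in WT amygdala, at 268 CPM in female mouse 23, where the next library had 106 CPM. Male WT mouse 12 was lowest in amygdala for a pair of AP-1 genes, Fosb at 4.41 CPM (next 11.2 CPM) and Junb at 27.5 CPM (next 45.1 CPM). Fos was listed at 0 in ventral hippocampus of male WT mouse 13, where the next WT library had 3.64 CPM. Egr1 in cortex of male KO mouse 1 stood at 199.7 CPM (next 249.8 CPM). Nr4a3 in prefrontal cortex of female WT mouse 11 stood at 13.9 CPM (next 50.2 CPM). Ier2 was low in dorsal hippocampus of male KO mouse 2, at 3.79 CPM (next 5.54 CPM), and in the prefrontal cortex library labelled female WT mouse 23, at 2.45 CPM (next 6.35 CPM), which also has the sex markers of a male.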

How the results depend on the processing

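Of 291 recomputed summary values, 273 stayed within the spread of the main value or within 1.5 times the main count, and 18 moved. The main counts for KO against WT and for the sex difference were all 0, and a repeated 0 was scored as unchanged. Those repeats add to the 273 whatever the power of the tests. Of 341 recomputed values of single genes, 331 kept their side of the threshold, 8 lost a call and 2 gained one. Direction was scored only for genes with a call, of which 0 reversed. Of the fits with a mouse left out, only those with the lowest and highest difference entered this count. A call lost without another mouse is therefore not in it. These single genes were those that passed in the main fit or, for KO against WT, had an unadjusted p under 0.05. Calls gained by other genes, such as those added between regions, are therefore not counted among them. Without the low-count filter, the number of the 10 genes under the threshold was 1 for KO against WT in ventral hippocampus (both sexes, and 1 in males), 1 for amygdala against dorsal hippocampus and 4 for cortex against prefrontal cortex. With the mouse as a replicate block, the number was 1 for ventral against dorsal striatum, 6 for ventral striatum against amygdala and 1 for amygdala against dorsal hippocampus, and the block also added Junb and Egr4 for ventral striatum and Nr4a1 for dorsal striatum against dorsal hippocampus and took Nr4a3 from ventral hippocampus against prefrontal cortex. The mice are the same animals in each region, so this pairing comes from the labels. With a mouse left out, the number ran from 0 to 2 in female dorsal hippocampus and 0 to 1 in female prefrontal cortex (KO against WT), from 0 to 2 for ventral against dorsal striatum, 3 to 5 for ventral striatum against amygdala, 1 to 2 for amygdala against dorsal hippocampus and 5 to 8 for ventral hippocampus against prefrontal cortex, and the median r of ventral with dorsal striatum ran from 0.417 to 0.776. Without the libraries low in their region's markers, ventral striatum against amygdala had 6 genes, the median pairwise r in ventral striatum was 0.295, and the median r of ventral striatum was 0.106 with dorsal striatum and 0.232 with amygdala. Fewer libraries or genes enter these fits, and the cause of the other changes was not tested. Depth limits Egr2 in the shallower regions (3 counts or fewer in 12 of 12 ventral hippocampus, 6 of 11 cortex and 4 of 8 prefrontal cortex libraries) and Npas4, Fos and Ier2 in ventral hippocampus (7, 4 and 4 of 12).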
